A study of Mus musculus with 8 samples.

Results

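The genes described here are 47 genes of mitosis and of the passage from G2 into mitosis (G2/M), chosen by their gene symbols. A measured value entered only for Kif11, whose symbol has 2 rows in the table, of which the row with the higher mean was used. All 47 were found among the 52143 rows of the deposited gene table, and all 47 were among the 13164 genes that reached 1 TPM in at least 4 of the 8 libraries. TPM is a transcript's share of a library after correction for its length, scaled to a total of 1000000, so that levels of different genes can be set side by side. RNA-Seq was made of mouse distal colon at baseline, with 4 Control and 4 SiglecXII libraries. Control mice were Villin1-Cre-ERT, and SiglecXII mice were SIGLEC12-Villin1-Cre-ERT, with the human SIGLEC12 sequence knocked into the ROSA26 locus behind a loxP-flanked EGFP stop cassette and under the CAG promoter. Both groups carried the tamoxifen-dependent Cre, which the Villin1 promoter drives in intestinal epithelium, and both were injected with tamoxifen (10 mg/ml) on 5 days from 8 weeks of age, with colons taken 7 days after the last dose. SIGLEC12 encodes Siglec-XII, a receptor of the sialic acid-binding lectin family that no longer binds its ligand. No row of the table stands for SIGLEC12, EGFP or Cre, so no check of the group labels by the transgene was possible. The design text speaks of 3 mice per condition and the Methods of 3 technical libraries per sample, whereas 4 libraries are labelled in each group, so that a p-value measures only the spread between these libraries, which may be technical.

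A cell that enters mitosis switches on CDK1 with cyclins A and B, condenses its chromosomes, attaches them through kinetochores to the spindle, waits at the spindle checkpoint until all are attached, and then degrades cyclin B and securin through the anaphase-promoting complex before the cell body divides. Most of these genes are transcribed late in the cell cycle, after those of DNA replication, and are low in resting cells. In the colon, dividing cells lie in the lower part of the crypts, and cells stop dividing and differentiate as they move up towards the surface. In bulk tissue, fewer dividing cells and less RNA per dividing cell cannot be told apart.

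The promoters of such genes commonly carry the cell cycle genes homology region (CHR), a site with the letters TTTGAA that MuvB-containing complexes bind, and CCAAT boxes, which NF-Y binds. Windows from 250 bases before to 50 bases after the RefSeq start (GRCm38.p6) were matched for 40 of the 47 members. TTTGAA, on either strand, was present in 31 of these 40 genes (77.5%), against 20.2% of all 27025 genes with a window, 23 of 43 other mitotic genes (53.5%) and 5 of 30 genes of S phase and G1/S (16.7%). CCAAT, on either strand, was present in 31 of 40 members (77.5%), against 41.1% of all genes with a window, 65.1% of the other mitotic genes and 63.3% of the S phase genes. Both stood in 27 members (67.5%), against 7.97% of all genes with a window, 37.2% of the other mitotic genes and 13.3% of the S phase genes. A CHR and a CCAAT match may share 1 letter where they adjoin, and a match of letters is a description and not a measured binding site. A run of 6 letters also occurs often by base composition alone, and base composition was not matched between the sets. The 6 stretches below are the 150 bases before the RefSeq start of the genes, among those described in full, whose CHR lay wholly before the start and nearest to it. They are shown 5′ to 3′ in the direction of transcription, with matches to TTTGAA or its reverse complement and to CCAAT or its reverse complement in capitals.
Cdk1 promoter, chr10:69352913-69353062, minus strand: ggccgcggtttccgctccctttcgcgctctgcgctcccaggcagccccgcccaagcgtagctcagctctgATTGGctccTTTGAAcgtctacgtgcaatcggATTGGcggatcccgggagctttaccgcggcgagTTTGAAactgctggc
Top2a promoter, chr11:99024190-99024339, minus strand: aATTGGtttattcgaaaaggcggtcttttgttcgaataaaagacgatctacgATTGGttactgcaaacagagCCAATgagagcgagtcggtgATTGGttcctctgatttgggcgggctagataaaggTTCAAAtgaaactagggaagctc
Ube2c promoter, chr2:164769779-164769928, plus strand: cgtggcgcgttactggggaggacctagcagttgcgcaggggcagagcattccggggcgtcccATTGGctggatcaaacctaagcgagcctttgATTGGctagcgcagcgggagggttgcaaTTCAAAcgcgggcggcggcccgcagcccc
Bub3 promoter, chr7:131560220-131560369, plus strand: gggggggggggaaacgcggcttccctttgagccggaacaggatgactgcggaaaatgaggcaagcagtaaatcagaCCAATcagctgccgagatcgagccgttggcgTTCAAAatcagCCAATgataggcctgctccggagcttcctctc
Mki67 promoter, chr7:135716380-135716529, minus strand: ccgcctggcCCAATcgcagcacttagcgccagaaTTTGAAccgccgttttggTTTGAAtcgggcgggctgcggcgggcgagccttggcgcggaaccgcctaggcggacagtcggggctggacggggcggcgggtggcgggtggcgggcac
Ncapd2 promoter, chr6:125191587-125191736, minus strand: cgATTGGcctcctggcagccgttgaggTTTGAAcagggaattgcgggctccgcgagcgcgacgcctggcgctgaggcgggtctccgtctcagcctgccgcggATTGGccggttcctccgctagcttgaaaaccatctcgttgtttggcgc
The first base of the nearest CHR lay 15 bases before the start in Cdk1, 23 in Top2a, 29 in Ube2c, 43 in Bub3, 98 in Mki67 and 123 in Ncapd2. The stretches of Cdk1 and Mki67 held 2 CHR matches each, and that of Top2a held 4 CCAAT matches. By the GENCODE gene positions given below, the stretches of Cdk1, Ube2c, Bub3 and Ncapd2 run into the gene, and that of Bub3 lies almost wholly inside it. The nearest CHR of Cdk1, Ube2c and Bub3 lies inside those positions. In Plk1, Cenpa, Ndc80, Kif4, Kif23 and Racgap1 the CHR match lay after the RefSeq start, and no sequence is shown for them.

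The epithelial markers Epcam, Cdh1, Krt8, Krt18, Krt19, Krt20, Vil1, Cldn3, Cldn7 and Lgals4 were present in every library, and their summed level lay between 14833 and 19757 TPM in Control and between 15244 and 19429 TPM in SiglecXII libraries. No library repeated another (r across genes from 0.945 to 0.987), and the depth behind each value is unknown because TPM keeps no read count. The median tested gene was 0.15 log2 units lower in SiglecXII than in Control libraries, with SiglecXII 3 and 4 the most shifted (-0.16 and -0.30 from the mean of the 8). Differences are given on the deposited scale, as SiglecXII minus Control in log2(TPM + 1), which understates the change of genes with few TPM, and a value after ± is the standard error from limma unless an SD is named. Among the 47 members, Control 1 stood apart from the other 3 Control libraries. The members summed to 415 TPM in Control 1, against 1353, 1111 and 1110 TPM in Control 2, 3 and 4, and to 955, 843, 775 and 500.0 TPM in SiglecXII 1 to 4. Control 1 was the lowest Control library in 47 of 47 members and the lowest of all 8 libraries in 32, and SiglecXII 4 was the lowest of all 8 in the other 15. Over all tested genes Control 1 was the lowest Control library in 54.2% and the lowest of all 8 in 16.3%, and SiglecXII 4 was the lowest of all 8 in 51.9%. SiglecXII 4 was the lowest SiglecXII library in 46 of 47 members, against 62.35% of all tested genes. The group differences of the members are given with and without Control 1, a library that stands out by the very genes compared, so that the values without it are no independent test. Leaving out Control 1 lowers the difference of every member, and leaving out SiglecXII 4 raises it, because each lies below the mean of the rest of its group.

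With all 8 libraries, none of the 47 members differed between SiglecXII and Control mice past an adjusted p of 0.05 (limma, Benjamini-Hochberg over the 13164 genes), where 0.038% of all tested genes were called. The smallest adjusted p of a member was 0.515 in the same limma fit. None passed an unadjusted P of 0.05 either, where 7.67% of all tested genes were lower and 1.19% higher in SiglecXII mice, and the smallest was that of Cdc25b. The two-sided exact permutation test over the 70 labelings of the libraries gave p from 0.114 (Cdc25b) to 1 (Hmmr), where 0.0286 is the smallest it can give. The difference was below 0 in 45 members and above 0 in Cenpa (0.07) and Hmmr (0.10), against 10276 of the 13164 tested genes below 0. Its median was -0.32 over the members and -0.15 over all tested genes. After median centring the difference was below 0 in 32 members and above 0 in 15, against 5074 of the tested genes below 0. After quantile normalization it was below 0 in 37 and above 0 in 10, against 6090 of the tested genes below 0. No member changed by 2-fold or more, and none had groups that did not overlap, against 4.06% of all tested genes not overlapping with SiglecXII lower and 1.05% with SiglecXII higher.

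Without Control 1, 40 of the 47 members were lower in SiglecXII mice at an unadjusted P of 0.05, against 7.51% of all tested genes, and none at an adjusted p of 0.05 (limma, Benjamini-Hochberg; 0.038% of all tested genes). The smallest adjusted p of a member was then 0.447 in this limma fit. The median difference of the members was -0.68, from -1.10 in Top2a to -0.22 in Pttg1, against -0.19 over all tested genes. In 36 members the 4 SiglecXII libraries all lay below Control 2, 3 and 4, against 10.9% of all tested genes. With each library also centred on its median gene, an alternative added after the data were seen, 34 of 47 members passed the unadjusted P, against 2.24% of all tested genes. The 7 members that did not pass without Control 1 were Ccnb2, Cdc25c, Pttg1, Cenpa, Cenpe, Cenpf and Hmmr. Leaving out the lowest Control also took the median SD of the Control group over the members from 0.77 to 0.16. The members moved together (median r of 0.960 without Control 1). The counts without Control 1, here and by role below, therefore describe a shared pattern of libraries and are not separate evidence for each member. Leaving out SiglecXII 4 instead moved the median difference to -0.11, with 35 members below 0 and 12 above. Over all tested genes the median was then -0.08, with 9131 genes below 0 and 4033 above. The difference without SiglecXII 4 was -0.25 in Mki67, -0.42 in Top2a, -0.23 in Cdk1 and 0.03 in Ccnb1. No member passed the unadjusted P in that fit, against 3.18% of all tested genes that were lower.

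**Figure D1:**
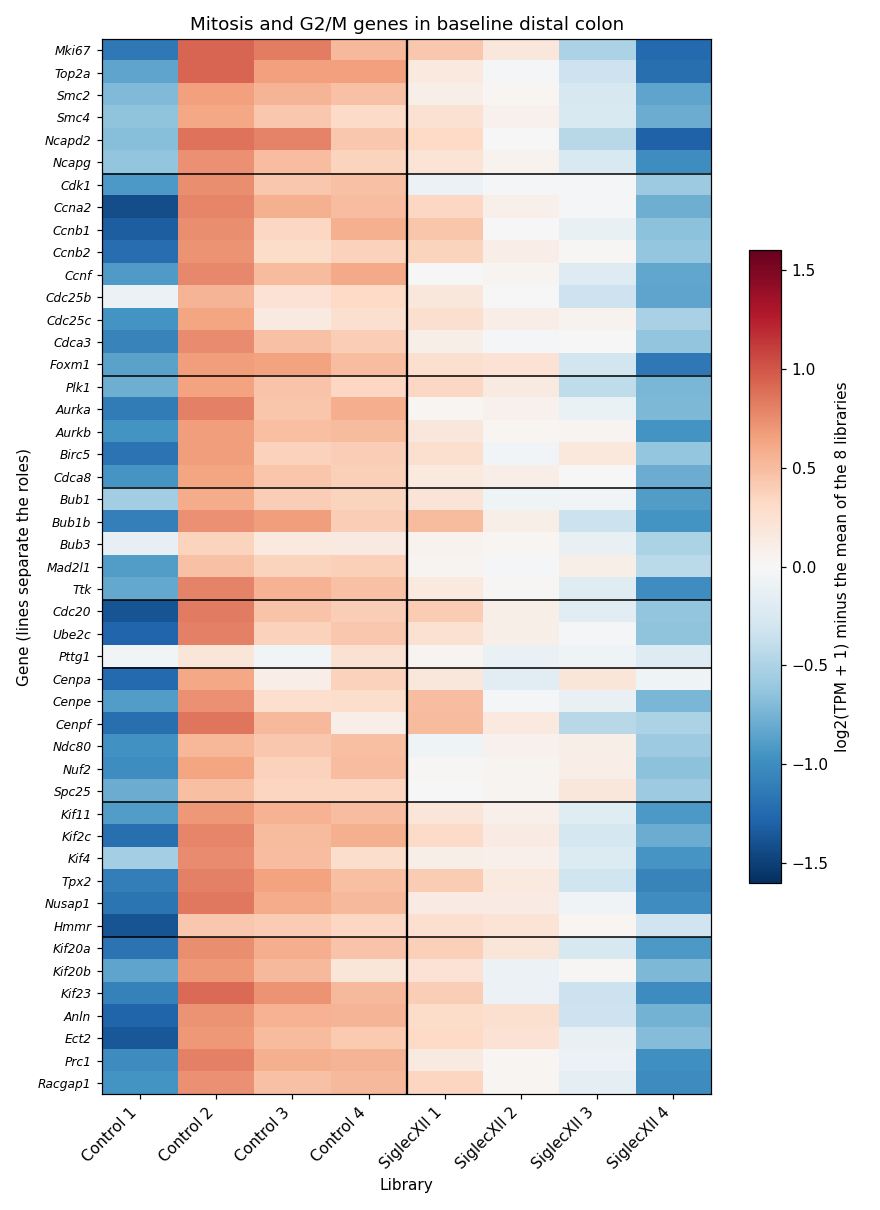
Level of each of the 47 genes (rows, with black lines between roles) in each of the 8 libraries (columns), as log2(TPM + 1) minus the gene's mean over the 8 libraries, on a colour scale from blue (low) to red (high). Control 1 and SiglecXII 4 are the blue columns in nearly every row, Control 2 is the reddest, and Pttg1 and Bub3 are the palest rows.

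Chromosome structure was represented by 6 members: the DNA topoisomerase Top2a, the chromosome coat protein Mki67 (the Ki-67 antigen of proliferating cells) and the condensin subunits Smc2, Smc4, Ncapd2 and Ncapg, which compact chromosomes. Mki67 (ENSMUSG00000031004, chr7:135689784-135716361) was measured at 4.31, 21.3, 19.7 and 15.8 TPM in Control 1 to 4 and 14.7, 12.2, 7.22 and 3.95 TPM in SiglecXII 1 to 4. Control 2, 3 and 4 lay above all 4 SiglecXII libraries, and Control 1 lay with SiglecXII 4 at the bottom, at 22.8% of the mean of the other Controls. The difference in Mki67 was -0.57 ± 0.51 log2 units with all 8 libraries (exact permutation p = 0.314) and -1.04 ± 0.37 without Control 1. Top2a (ENSMUSG00000020914, chr11:98992943-99024189) was measured at 16.5, 58.7, 48.5 and 48.7 TPM in Control 1 to 4 and 34, 30.1, 23.9 and 12.7 TPM in SiglecXII 1 to 4. Here too the groups overlapped only through Control 1, and the level in SiglecXII libraries spread from 12.7 to 34.0 TPM. The difference in Top2a was -0.70 ± 0.42 log2 units with all 8 libraries (exact permutation p = 0.257) and -1.10 ± 0.30 without Control 1, the largest of the members without Control 1. Ncapd2 (ENSMUSG00000038252, chr6:125168007-125191701), the condensin I subunit with the smallest P of this role, was measured at 6.83, 21.9, 20.8 and 16 TPM in Control 1 to 4 and 14.6, 11.5, 8.26 and 4.1 TPM in SiglecXII 1 to 4. Its lowest library was SiglecXII 4, below Control 1, and its difference of -0.71 ± 0.42 log2 units with all 8 libraries (exact permutation p = 0.229) and -1.06 ± 0.35 without Control 1 was the largest of the members with all libraries. The role as a whole had the most negative median difference among the 8 roles, -0.53 with all libraries and -0.92 without Control 1. In all 6 members the groups no longer overlapped once Control 1 was left out, against 10.9% of all tested genes with SiglecXII lower. Smc2 differed by -0.48 with all libraries and -0.80 without Control 1, Smc4 by -0.36 and -0.63, and Ncapg by -0.48 and -0.77, each nearer 0 than Mki67, Top2a and Ncapd2, and none of the 6 passed the unadjusted P with all libraries.

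Entry into mitosis was represented by 9 members. Cdk1 (ENSMUSG00000019942, chr10:69335146-69352938), the kinase that drives the transition, was measured at 28.2, 90.8, 73.1 and 75.1 TPM in Control 1 to 4 and 50.4, 53.1, 53.3 and 35.7 TPM in SiglecXII 1 to 4. SiglecXII 1, 2 and 3 were within 3 TPM of each other, between Control 1 and the other Controls. The difference in Cdk1 was -0.36 ± 0.33 log2 units with all 8 libraries (exact permutation p = 0.4) and -0.73 ± 0.16 without Control 1, which had the smallest unadjusted P of the 47 members without that library. Ccnb1 (ENSMUSG00000041431, chr13:100778650-100786570), cyclin B1, the partner of CDK1 in mitosis, was measured at 6.05, 28.4, 21.1 and 25.1 TPM in Control 1 to 4 and 22.9, 16.7, 15.2 and 10.1 TPM in SiglecXII 1 to 4. Control 1 was at 24.3% of the other Controls, and SiglecXII 1 lay above Control 3, so that the groups still overlapped without Control 1. The difference in Ccnb1 was -0.16 ± 0.44 log2 units with all 8 libraries (exact permutation p = 0.771) and -0.63 ± 0.24 without Control 1; it turned to 0.05 after median centring and to 0.03 after quantile normalization. A share of 27.8% of the 31-base windows of Ccnb1 transcripts also occurs in other genes, mostly in the pseudogene Ccnb1-ps (22.9%), so the split of reads between them is uncertain. Cdc25b (ENSMUSG00000027330, chr2:131186949-131198497), a phosphatase that activates CDK1, was measured at 11.9, 19.1, 15.2 and 16.3 TPM in Control 1 to 4 and 14.8, 12.9, 10 and 6.69 TPM in SiglecXII 1 to 4. Its difference, with the smallest unadjusted P of all 47 members, was -0.49 ± 0.23 log2 units with all 8 libraries (exact permutation p = 0.114) and -0.61 ± 0.24 without Control 1, and Control 1 departed little in it, at 70.6% of the other Controls.

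Among the other 6 members of this role, Ccna2 (cyclin A2) showed the largest departure of Control 1 of all 47 in log2(TPM + 1), -2.03, with 22.8% of the TPM of the other Controls, a share that was lowest in Cenpf (15.7%). Its difference was -0.21 with all libraries and -0.71 without Control 1. Ccnb2 (cyclin B2) differed by -0.08 and -0.50, Ccnf (cyclin F) by -0.49 and -0.88, and Cdc25c by -0.04 and -0.37. Cdca3, a substrate adaptor for protein degradation at mitotic entry, differed by -0.28 and -0.68. Foxm1, a transcription factor for late cell cycle genes, differed by -0.47 and -0.83, and SiglecXII 4 stood at 32% of the mean of SiglecXII 1 to 3, the lowest such share of the 47. Control 1 was under 50% of the other Controls in 8 of these 9 genes, the exception being Cdc25b.

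**Figure D2:**
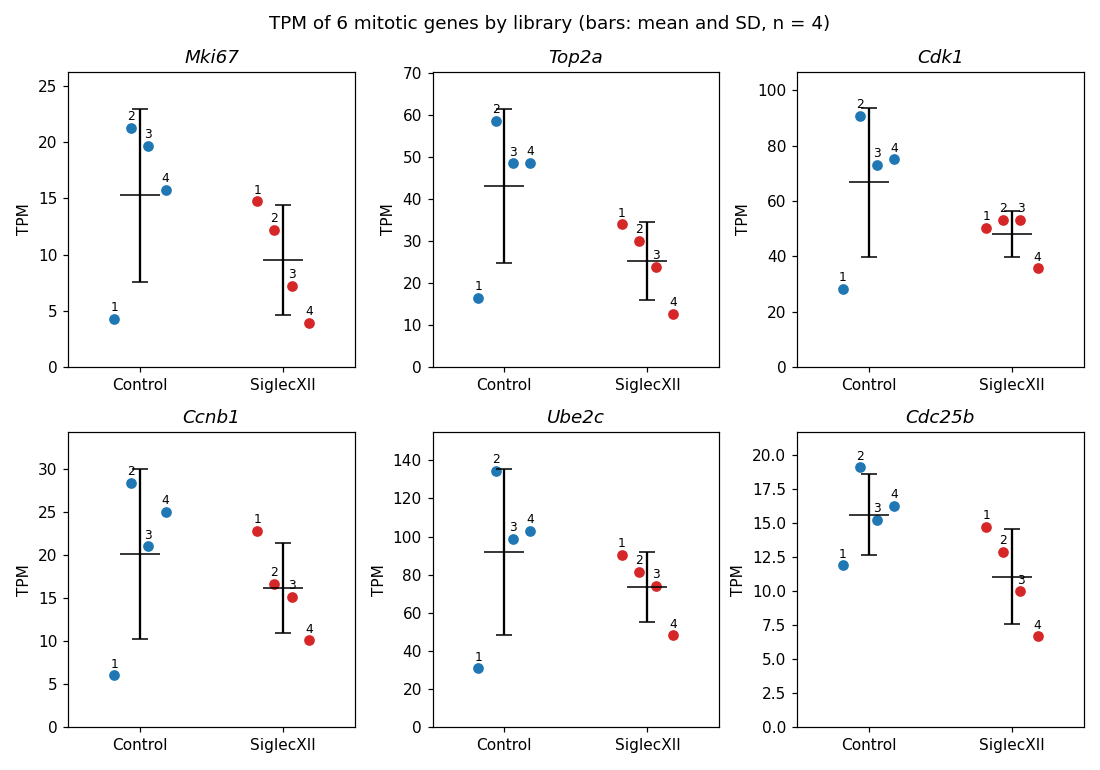
TPM of Mki67, Top2a, Cdk1, Ccnb1, Ube2c and Cdc25b in each library (points numbered by library), with the mean and SD of each group (bars, n = 4). Control 1 sits far below Control 2 to 4 in every panel but Cdc25b, and in every panel but Ccnb1 all SiglecXII libraries lie below Control 2 to 4.

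The mitotic kinases and the chromosomal passenger complex, which corrects faulty spindle attachments, were represented by Plk1, Aurka, Aurkb, Birc5 (survivin) and Cdca8 (borealin). Birc5 (ENSMUSG00000017716, chr11:117849251-117855743), the most abundant of them, was measured at 21.3, 79.5, 64.2 and 65.4 TPM in Control 1 to 4 and 59.3, 48.3, 55.9 and 31.8 TPM in SiglecXII 1 to 4. SiglecXII 1 to 4 all lay between Control 1 and Control 3. The difference in Birc5 was -0.12 ± 0.39 log2 units with all 8 libraries (exact permutation p = 0.771) and -0.54 ± 0.21 without Control 1, and with all libraries it turned to 0.09 after median centring. Plk1 (ENSMUSG00000030867, chr7:122159439-122169873), the polo-like kinase needed at several steps of mitosis, was measured at 17.9, 49.9, 43.7 and 39.9 TPM in Control 1 to 4 and 40.1, 35, 23.5 and 18.6 TPM in SiglecXII 1 to 4. Control 4 and SiglecXII 1 were nearly level in Plk1, the single overlap that remained in this role without Control 1. The difference in Plk1 was -0.33 ± 0.34 log2 units with all 8 libraries (exact permutation p = 0.457) and -0.64 ± 0.25 without Control 1. Of its windows, 18.7% are shared with other genes, mostly the pseudogene Plk-ps1. Aurka, the spindle pole kinase, differed by -0.36 with all libraries and -0.79 without Control 1, Aurkb, the kinase of the passenger complex, by -0.35 and -0.73, and Cdca8 by -0.26 and -0.61. All 5 passed the unadjusted P without Control 1 and none with it, where 7.51% and 7.67% of all tested genes were lower at that P.

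The spindle checkpoint, which holds anaphase until every chromosome is attached, was represented by Bub1, Bub1b, Bub3, Mad2l1 and Ttk. Bub3 (ENSMUSG00000066979, chr7:131560222-131571895), a checkpoint protein that also binds RNA processing factors in interphase, had the highest level and the smallest P, and was measured at 30.5, 43.3, 37.6 and 37.3 TPM in Control 1 to 4 and 35, 34.2, 30.8 and 23.3 TPM in SiglecXII 1 to 4. The spread of Bub3 over the 8 libraries was among the narrowest of the members, and Control 1 stood at 77.4% of the other Controls. The difference in Bub3 was -0.27 ± 0.16 log2 units with all 8 libraries (exact permutation p = 0.171) and -0.36 ± 0.16 without Control 1. The other 4 followed the common pattern more closely, with Control 1 at 40.1% of the other Controls in Bub1, 24.9% in Bub1b, 38% in Mad2l1 and 25.8% in Ttk. With all libraries their differences ran from -0.50 in Ttk to -0.16 in Mad2l1. Without Control 1 they ran from -0.86 in Ttk to -0.49 in Mad2l1. All 5 genes of the checkpoint then passed the unadjusted P, against 7.51% of all tested genes that were lower at that P.

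Anaphase was represented by the activator Cdc20, the ubiquitin-conjugating enzyme Ube2c and securin, Pttg1, which the anaphase-promoting complex destroys. Ube2c (ENSMUSG00000001403, chr2:164769898-164778822) was the most abundant of the 47 members, with a mean of 82.8 TPM, and was measured at 31, 135, 98.9 and 103 TPM in Control 1 to 4 and 90.5, 81.7, 74.3 and 48.2 TPM in SiglecXII 1 to 4. Control 1 was at 27.7% of the other Controls, and Control 2, 3 and 4 lay above every SiglecXII library. The difference in Ube2c was -0.17 ± 0.42 log2 units with all 8 libraries (exact permutation p = 0.743) and -0.62 ± 0.22 without Control 1; the value with all libraries turned to 0.04 after median centring. Exons of Ube2c overlap those of Tnnc2 on the opposite strand, and 25.3% of its windows occur in other genes. Pttg1 (ENSMUSG00000020415, chr11:43420250-43426251) was measured at 46.6, 55.1, 46.8 and 57.4 TPM in Control 1 to 4 and 49.6, 44.9, 45.9 and 41.6 TPM in SiglecXII 1 to 4. It was the member that varied least, over 0.45 log2 units in the 8 libraries against a median of 1.81 over the members, and the one in which Control 4 and not Control 2 was highest. The difference in Pttg1 was -0.17 ± 0.11 log2 units with all 8 libraries (exact permutation p = 0.143) and -0.22 ± 0.11 without Control 1, and it turned to 0.04 after median centring. Cdc20 varied most of all 47, over 2.22 log2 units, with Control 1 at 24.1% of the other Controls. Its difference was -0.15 with all libraries and -0.63 without Control 1. Of the windows of Cdc20, 26.7% are shared with other genes, mostly Gm7856 (23.4%), so its level is uncertain too.

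The centromere and kinetochore, where microtubules attach, were represented by Cenpa, Cenpe, Cenpf, Ndc80, Nuf2 and Spc25. Cenpa (ENSMUSG00000029177, chr5:30666777-30674830), the histone H3 variant that marks centromeres, was measured at 14.7, 56.2, 39 and 46.9 TPM in Control 1 to 4 and 41.2, 31.9, 41.6 and 34.3 TPM in SiglecXII 1 to 4. Control 1 alone was low in Cenpa: it stood at 30.9% of the other Controls, whereas SiglecXII 4 stood at 89.8% of SiglecXII 1 to 3, the highest such share of the 47. The difference in Cenpa was 0.07 ± 0.36 log2 units with all 8 libraries (exact permutation p = 0.943) and -0.33 ± 0.16 without Control 1. Ndc80 (ENSMUSG00000024056, chr17:71496100-71526857), a subunit of the complex that grips microtubules, had the smallest P of this role and was measured at 2.13, 7.85, 7.27 and 7.51 TPM in Control 1 to 4 and 4.81, 5.43, 5.54 and 3.07 TPM in SiglecXII 1 to 4. Control 2, 3 and 4 differed by under 1 TPM, and their SD of 0.05 log2 units was the smallest of the members. The difference in Ndc80 was -0.24 ± 0.34 log2 units with all 8 libraries (exact permutation p = 0.571) and -0.60 ± 0.19 without Control 1. Nuf2 and Spc25, which belong to the same complex, differed by -0.25 and -0.18 with all libraries and by -0.62 and -0.48 without Control 1. Ndc80, Nuf2 and Spc25 passed the unadjusted P only without Control 1. They were 3 of the 6 genes of this role, against 7.51% of all tested genes that were lower at that P. Cenpe, a kinetochore motor, differed by -0.19 and -0.52, and Cenpf, a large kinetochore protein, by -0.14 and -0.57, and neither passed in either fit, although Control 1 held only 25.7% and 15.7% of the TPM of the other Controls; the mean level of Cenpe, 3.15 TPM, was the lowest of the members.

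Spindle motors and assembly factors were represented by Kif11, Kif2c, Kif4, Tpx2, Nusap1 and Hmmr. Nusap1 (ENSMUSG00000027306, chr2:119618298-119651244), a microtubule-bundling protein and the most abundant of the 6, was measured at 4.96, 23, 19.3 and 18.3 TPM in Control 1 to 4 and 13.7, 13.7, 11.9 and 5.71 TPM in SiglecXII 1 to 4. All SiglecXII libraries lay between Control 1 and Control 4. The difference in Nusap1 was -0.40 ± 0.45 log2 units with all 8 libraries (exact permutation p = 0.457) and -0.85 ± 0.28 without Control 1. Kif4 (ENSMUSG00000034311, chrX:100625737-100727214), a motor that works on chromosome arms and on the central spindle, was measured at 1.76, 5.77, 4.63 and 3.86 TPM in Control 1 to 4 and 3.25, 3.23, 2.44 and 1.09 TPM in SiglecXII 1 to 4. SiglecXII 4 was the lowest library in Kif4, and Control 4 lay close above SiglecXII 1 and 2. The difference in Kif4 was -0.50 ± 0.32 log2 units with all 8 libraries (exact permutation p = 0.229) and -0.76 ± 0.27 without Control 1. Kif11, the motor that separates the spindle poles, differed by -0.42 with all libraries and -0.79 without Control 1, Kif2c, a microtubule-depolymerizing kinesin, by -0.32 and -0.78, and Tpx2, the activator of Aurora A on the spindle, by -0.41 and -0.85. All 3 passed the unadjusted P without Control 1 and none with it, where 7.51% and 7.67% of all tested genes were lower at that P. Hmmr, a spindle protein, was above 0 with all libraries (0.10) and below 0 without Control 1 (-0.34), and did not pass in either; Control 1 held 21.8% of the TPM of the other Controls and SiglecXII 4 67.5% of the other SiglecXII libraries.

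Cytokinesis was represented by the central spindle proteins Kif20a, Kif20b, Kif23, Prc1 and Racgap1, the contractile ring protein Anln (anillin) and Ect2, the exchange factor that activates RhoA. Racgap1 (ENSMUSG00000023015, chr15:99620496-99651656), the most abundant of the 7, was measured at 10, 34.6, 28.7 and 29.6 TPM in Control 1 to 4 and 26.3, 20.9, 18.4 and 9.7 TPM in SiglecXII 1 to 4. Control 1 and SiglecXII 4 were within 1 TPM of each other, and the other 6 libraries kept to the order of Control above SiglecXII. The difference in Racgap1 was -0.38 ± 0.40 log2 units with all 8 libraries (exact permutation p = 0.4) and -0.76 ± 0.29 without Control 1. Kif23 (ENSMUSG00000032254, chr9:61915905-61946774), the motor that forms the centralspindlin complex with Racgap1, was measured at 5.02, 22.9, 20 and 17.3 TPM in Control 1 to 4 and 15.8, 11, 9.06 and 5.34 TPM in SiglecXII 1 to 4. Levels in the SiglecXII libraries ran from 5.34 to 15.8 TPM, all below Control 4. The difference in Kif23 was -0.53 ± 0.45 log2 units with all 8 libraries (exact permutation p = 0.343) and -0.98 ± 0.30 without Control 1. Without Control 1 all 7 genes of cytokinesis passed the unadjusted P, against 7.51% of all tested genes that were lower at that P. Their differences then ran from -0.98 in Kif23 to -0.60 in Ect2. With all libraries none passed, with differences from -0.53 in Kif23 to -0.13 in Ect2. Kif20a shares 26.7% of its windows with Cdc23, whose exons overlap it on the opposite strand, and Prc1 shares 12.5% with other genes, so that their levels could be split otherwise. In all, 11 of the members share over 10% of their windows with other genes. Those not named so far are Kif4 (15.67%, mostly with Pdzd11), Cdc25c (13.27%), Ncapg (12.47%), Ccna2 (12.04%) and Ndc80 (10.63%), and the same limit holds for their levels.

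**Figure D3:**
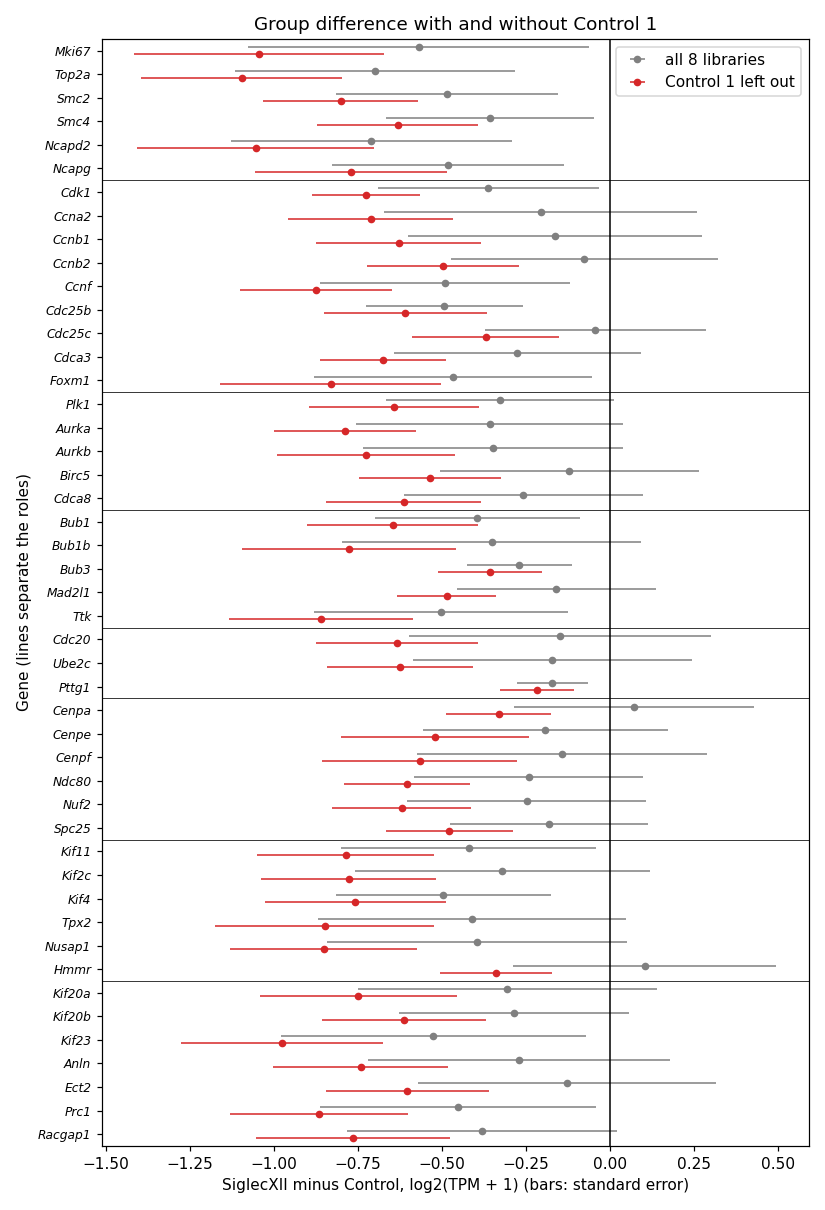
SiglecXII minus Control in log2(TPM + 1) for each of the 47 genes, with all 8 libraries (grey) and with Control 1 left out (red); bars are limma standard errors and lines separate the roles. The grey points lie between -0.71 (Ncapd2) and 0.10 (Hmmr), and the red points lie between -1.10 (Top2a) and -0.22 (Pttg1).

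The members moved together across libraries. Over the 1081 pairs of members, the median Pearson r across the 8 libraries was 0.948, against 0.322 over all pairs of tested genes, and 75.0% of the pairs of members were above 0.9. With the group means subtracted the median was 0.963 (all tested genes, 0.298), and without Control 1 it was 0.960 (0.411). The 8 points of each pair are the same 8 libraries, so these values describe shared variation between libraries and are not independent of one another. Control 2 was the highest library in 46 members, against 26.6% of all tested genes. The SD of the Control group was above that of the SiglecXII group in 45 members, with medians of 0.77 and 0.46 log2 units, and the median SD of Control 2 to 4 alone was 0.16.

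Control 1 and SiglecXII 4 were both low in mitotic genes but differed in the genes of DNA replication. The S phase and G1/S list held 36 genes, among them the replicative helicase subunits Mcm2 to Mcm7, the sliding clamp Pcna and the nucleotide synthesis enzymes Rrm1, Rrm2, Tyms and Tk1. In Control 1 these genes departed from Control 2 to 4 by a median of -0.14 log2 units, from -1.36 in E2f2 to 0.53 in Mcm3, against -1.53 for the members, from -2.03 in Ccna2 to -0.18 in Pttg1, and -0.16 over all tested genes. In SiglecXII 4 they departed from SiglecXII 1 to 3 by -0.77, against -0.81 for the members and -0.29 over all tested genes. Pcna was measured at 78.5, 81.4, 84.8 and 78.1 TPM in Control 1 to 4 and 68.9, 75.4, 73.4 and 50 TPM in SiglecXII 1 to 4, so that Control 1 was level with the other Controls while SiglecXII 4 was the lowest library. The ratio of summed members to summed S phase genes, which does not depend on scaling between libraries, was 0.849, 2.51, 1.94 and 2.11 in Control 1 to 4 and 2.18, 1.72, 1.66 and 1.70 in SiglecXII 1 to 4. Control 1 was thus the lowest of the 8 by this ratio, SiglecXII 1 lay above Control 3 and 4, and SiglecXII 4 lay beside SiglecXII 2 and 3.

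Other lists of the cycle were counted in the same fit. Over all tested genes, 7.67% were lower at the unadjusted P with all libraries, 7.51% without Control 1 and 2.165% after median centring. Control 1 was the lowest Control library in 54.2% of them. Of 56 further mitotic genes with a row, 2 were lower in SiglecXII mice at the unadjusted P (log2 differences with all libraries in brackets), Mybl2 (-0.51 ± 0.21), which encodes the MuvB partner B-MYB, and Plk4 (-0.35 ± 0.15), the kinase of centriole duplication; 37 of the 56 were lower without Control 1, and Control 1 was the lowest Control library in 55. Of the 36 S phase and G1/S genes, 11 were lower at the unadjusted P, with a median difference of -0.35; the smallest P belonged to Hells (-0.77 ± 0.26), Mcm4 (-0.72 ± 0.24) and Mcm10 (-0.47 ± 0.17). Without Control 1 the count was 8 of 36, and after median centring it was 3 of 36 with all libraries. Of the 15 genes for subunits of the anaphase-promoting complex and its activator Fzr1, 1 passed, Anapc2 (-0.46 ± 0.15), which also passed without Control 1, and the list departed little in Control 1 (median -0.30). None of the 9 cohesin genes passed (median difference -0.38), and the smallest P was that of Smc1a (-0.66 ± 0.31). Of the 6 tested CDK inhibitors none passed. Their differences ran from -0.36 to 0.19 (median 0.06), with 2 below 0 and 4 above, among them Cdkn1a (0.19 ± 0.14). None of the 11 DREAM and MuvB subunits passed (median -0.13). Without Control 1 the medians of these 3 lists were -0.50, -0.05 and -0.20, and 1 CDK inhibitor, Cdkn2c (-0.59), and 1 MuvB subunit, Lin9 (-0.39), were lower at the unadjusted P. No gene of these lists passed the adjusted p in limma with Benjamini-Hochberg adjustment, where the smallest value was 0.515.

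**Figure D4:**
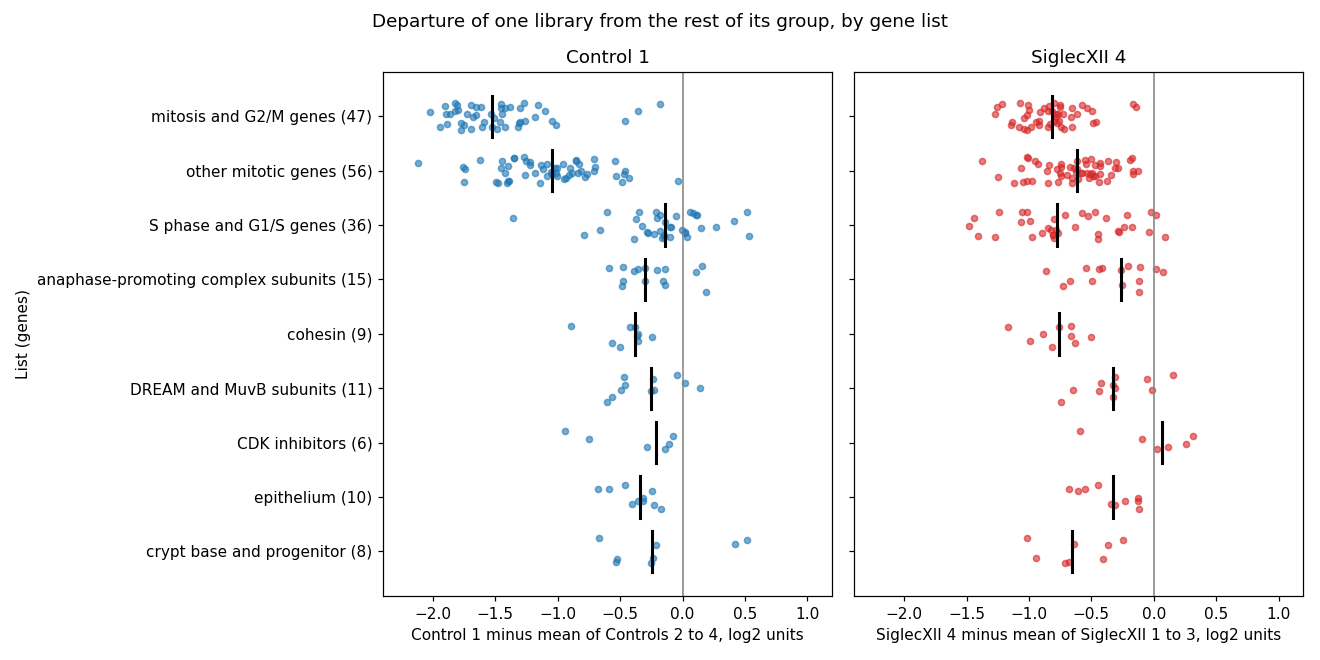
Departure of Control 1 from the mean of Control 2 to 4 (left) and of SiglecXII 4 from the mean of SiglecXII 1 to 3 (right), in log2(TPM + 1), for each gene (point) of 9 lists, with the median as a black bar. Control 1 is low in the mitotic lists (medians -1.53 and -1.05) and near its other values in the S phase list (-0.14), whereas SiglecXII 4 is low in all 3 (-0.81, -0.61 and -0.77).

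Markers of crypt, epithelium and other cells varied beside these values. For comparison, 7.67% of all tested genes were lower at the unadjusted P with all libraries and 7.51% without Control 1. Control 1 was the lowest Control library in 54.2% of all tested genes. The crypt base and progenitor list, with 8 of 9 genes tested, differed by a median of -0.44, and 4 of the 8 were lower in SiglecXII mice at the unadjusted P, with Myc (-0.98 ± 0.24), Ascl2 (-0.98 ± 0.22) and Lgr5 (-0.47 ± 0.14) first; without Control 1 the median was -0.55 and the count again 4. Control 1 was the lowest Control library in 6 of these 8 genes, with a median departure of -0.24. Ascl2, a transcription factor of crypt stem cells, was measured at 15.8, 14.3, 9.08 and 9.45 TPM in Control 1 to 4 and 7.82, 4.91, 5.05 and 4.73 TPM in SiglecXII 1 to 4, and was an exception in the list, with Control 1 as its highest library. The 10 epithelial genes had a median difference of 0.03, none of them passed, and Control 1 was the lowest Control library in 9, with a median departure of -0.34. The red cell genes Hbb-bs, Hba-a1 and Alas2 summed to 238 TPM in Control 1 against 5.88 to 30.4 TPM in Control 2 to 4, and to 31.7 to 157 TPM in SiglecXII libraries. The 8 B cell and germinal centre genes, none of which reached the filter, summed to 6.03 TPM in Control 1, 1.17 to 1.89 TPM in Control 2 to 4 and 0.666 to 2.34 TPM in SiglecXII libraries, with Mef2b at 0 in all 4 Controls; the 6 T cell genes summed to 1.11 to 2.57 TPM in Control and 1.12 to 1.69 TPM in SiglecXII libraries. The 8 smooth muscle genes summed to 645 to 1028 TPM in Control and to 311 to 665 TPM in SiglecXII libraries, with SiglecXII 4 lowest, and 4 of them were lower at the unadjusted P both with all libraries and without Control 1. The myeloid list summed to 31.4 to 138 TPM in Control and 4.41 to 10.5 TPM in SiglecXII libraries, and 2 of its 3 tested genes, the neutrophil genes S100a8 (-2.61 ± 0.46) and S100a9 (-2.94 ± 0.59), were lower at the unadjusted P with groups that did not overlap, also without Control 1 (-2.90 and -3.35). The third, Cd68 (-0.47 ± 0.22), did not pass, and the smallest adjusted p of the list was 0.333 (limma, Benjamini-Hochberg). TPM summed over the 6 fibroblast genes lay from 12.7 to 40.4 in Control and 16.7 to 73.9 in SiglecXII libraries, and over the 6 genes of enteric neurons and glia from 5.03 to 10.2 and 4.29 to 5.28. The part of these cell types in the levels of the mitotic genes was not tested.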

How the data were processed

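RNA-Seq of baseline distal colon was analysed in 4 Control and 4 SiglecXII libraries, grouped by their labels. The authors quantified reads with kallisto (0.45.0 and GRCm38 in the submitters' processing notes, whereas the Methods name a human build) and deposited 1 log2 value per gene and library, log2(TPM + 1), with no adjustment between libraries. The labels name a stranded total RNA kit, paired reads of 100 bases and about 25000000 to 40000000 reads per library, and the Methods name an mRNA kit. Because TPM values sum to 1000000 and keep no read count, the depth is unknown, no counting interval was computed, and the number of libraries limits the precision.

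A symbol with several rows was represented by its row of highest mean. The 13164 genes that reached 1 TPM in 4 or more libraries were fitted in R 4.3.3 with limma 3.58.1, using lmFit and then eBayes with trend on the group alone, with two-sided P and Benjamini-Hochberg adjustment over all of them. The fit was tested on simulated data. Python 3.11.15, scipy 1.17.1 and matplotlib 3.10.9 were used for exact permutation tests and figures. Positions, windows of 31 bases shared between genes and exon overlaps are those of GENCODE M21 (GRCm38), and promoters are those of RefSeq (GRCm38.p6).

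The members and all lists were chosen with earlier results of these data known. Described in full are Mki67, Top2a, Cdk1, Ccnb1 and, in each role, the member with the highest mean TPM and that with the smallest P; other lists give at most 3 genes by smallest P, and marker lists are given whole. Other genes named for an extreme value were chosen after their values were seen. Promoters were limited to those with the CHR before the RefSeq start, because no sequence after that start is printed. The GENCODE start lies further upstream in Cdk1, Ube2c, Bub3 and Ncapd2, so their stretches may hold 5′ UTR. Alternatives were a filter at 5 TPM, no filter, 0.1 as the pseudocount, median or epithelial centring, quantile normalization, array weights, the library number as a block and each library left out, and both centrings with Control 1 left out were added after the data were seen.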

Additional observations from a re-analysis of the deposited data

Results flagged for a closer look

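In groups of 4 libraries, a library was picked out where its gap to the nearest other library was a larger share of the group's range than Dixon's 95% critical value for 4 samples. This held in 25 of the 94 pairs of a member and a group, where chance gives about 1 in 20, or 4.7, for independent groups; the members are not independent, since they moved together. In 21 of the 25 the library was Control 1 as the lowest Control, with a share of the range of 0.847 for Top2a, 0.865 for Smc2, 0.869 for Ccna2, 0.844 for Ccnf, 0.886 for Foxm1, 0.88 for Aurkb, 0.836 for Birc5, 0.837 for Cdca8, 0.918 for Mad2l1, 0.934 for Ndc80, 0.84 for Nuf2, 0.888 for Spc25, 0.871 for Kif11, 0.862 for Kif2c, 0.841 for Nusap1, 0.943 for Hmmr, 0.85 for Kif20a, 0.915 for Anln, 0.867 for Ect2, 0.851 for Prc1 and 0.844 for Racgap1. In the other 4 it was SiglecXII 4 as the lowest SiglecXII library, with 0.858 for Cdk1, 0.863 for Aurkb, 0.843 for Cdca8 and 0.877 for Nuf2. Aurkb, Cdca8 and Nuf2 were picked out in both groups. Over all tested genes Control 1 was picked out as the lowest Control in 4.76%, and SiglecXII 4 as the lowest SiglecXII library in 1.19%.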

How the results depend on the processing

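No member passed an adjusted p of 0.05 in limma under any of the 18 alternatives, and the smallest adjusted p of the 17 genes described in full over all of these was 0.247 (Benjamini-Hochberg). The count of members past the unadjusted P was 0 in the main fit. It was 5 after epithelial centring (10.64% of members, below the 15.75% of all tested genes). With array weights it was 12 (25.53% of members, 10.78% of all tested genes). With Control 1 left out as well, it was 34 with median centring (72.34% of members, 2.241% of all tested genes). Epithelial centring without Control 1 gave 43 (91.49% of members, 10.96% of all tested genes). When each library was left out, the count lay between 0 and 40. It was 40 without Control 1 (85.11% of members, 7.513% of all tested genes lower). Without SiglecXII 1 it was 1 (2.128% of members, below the 16.58% of all tested genes). Without any other library it was 0, where 2.932% to 10.76% of all tested genes were lower. The count of members whose groups did not overlap was 0 with all libraries, against 4.06% of all tested genes with SiglecXII lower. It lay between 0 and 36 with each library left out, with 36 without Control 1, against 10.9% of all tested genes. It was 2 after epithelial centring, and 27 and 37 after median and epithelial centring without Control 1. For these centred settings the share of all tested genes is not given, so the counts cannot be read against it. The median difference of the members stayed below 0 in all 18 alternatives, from -0.68 to -0.11, where that of all tested genes ran from -0.21 to 0.06. The distance between the 2 medians varied. Members against all tested genes stood at -0.15 and -0.12 without Control 2, and at -0.11 and -0.08 without SiglecXII 4. They stood at -0.68 and -0.19 without Control 1, and at -0.11 and 0.06 after median centring. Of all 47 members, 2 were above 0 in the main fit, 15 after median centring and 10 after quantile normalization. Among the 17 genes described in full, signs turned as follows, with no value past a threshold. Median centring turned Ccnb1 (0.0496, and 0.0275 with quantile normalization), Birc5 (0.0916), Ube2c (0.0408) and Pttg1 (0.0414). Median centring without Control 1 turned Pttg1 (0.0394). Cenpa turned with array weights (-0.38) and with median (-0.0762) and epithelial centring (-0.24) without Control 1. With each library left out, Ccnb1 ran from -0.63 to 0.0580, Birc5 from -0.54 to 0.0819 and Ube2c from -0.62 to 0.0697, lowest without Control 1, highest without Control 2 and also above 0 without SiglecXII 4, and Cenpa ran from -0.33 without Control 1 to 0.29 without Control 2. Why these values moved was not tested. The filter at a TPM of 5 kept 39 of the 47 members.

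Both groups carry the numbers 1 to 4, and libraries of the same number did not deviate together (r of -0.165, -0.204, 0.103 and -0.00249 for numbers 1 to 4), so the numbers were not read as pairs. With the replicate block the count of members past the adjusted p was 0, past the unadjusted P 0, and of all tested genes 4 instead of 5 passed the adjusted p.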
